A study of Mus musculus with 18 samples.

Results

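The genes described here carry pyruvate into mitochondria, oxidize it, run the tricarboxylic acid (TCA) cycle and move cytosolic reducing equivalents through the malate-aspartate shuttle. They are a list of 29 symbols taken for their place in this pathway, and the list was drawn up with earlier results of these data known. All 29 were found among the 43430 genes of the count table. Of these, 28 passed the filter on low counts and were tested, together with 13596 genes in all. The exception was Slc25a13, which had 1 to 7 counts per library.

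RNA came from myofibers isolated from the quadriceps of C57BL/6 mice (C57BL/6J in the methods of the study), with polyA RNA sequenced as 1 library per mouse. There were 18 libraries in 6 groups of 3: males and females given vehicle, males and females given weekly prednisone, and males and females given daily prednisone. Prednisone is a synthetic glucocorticoid, it was injected over a course of several weeks into adult animals, and the vehicle was DMSO in buffered saline, which the weekly animals also received on the days between doses. Myofibers were the fraction held back by a cell strainer after collagenase digestion, so fat and other cells could be carried along. The mice were of the wild-type strain, and animals of both sexes were compared with vehicle animals of their own sex.

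Pyruvate made in the cytosol crosses the inner mitochondrial membrane through a carrier built from MPC1 and MPC2, and the pyruvate dehydrogenase complex turns it into acetyl-CoA. The TCA cycle then oxidizes the acetyl group to CO2 and passes the electrons to NADH and, at succinate dehydrogenase, directly to the respiratory chain. Skeletal muscle is rich in these enzymes, and glucocorticoids given for long periods are known to cause muscle atrophy.

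Total counts lay between 10506661 and 14686654 per library, and the tested genes of the list had between 284 and 11691 counts in each library, so counting error was small beside the spread between animals. The 29 genes together took between 0.455% and 1.08% of the counts, and both extremes were libraries of weekly females. Replicate 1 of that group was the highest for the list and also held 2325 CPM (counts relative to the scaled library size) summed over 10 slow-fiber genes, against 112 to 581 CPM in the other libraries. Transcripts of mitochondrial DNA took 11.7% to 36.4% of the counts. The 10 myofiber markers were present in every library and summed to between 118600 and 210100 CPM.

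Of the 28 tested genes, 2 were called lower with daily prednisone in males and none in females. Mpc2, which forms the pyruvate carrier with Mpc1, fell by 0.75 on the log2 scale with a standard error (SE) of 0.21 (adjusted p = 0.0413), and Sdhd, which encodes a membrane anchor of succinate dehydrogenase, fell by 0.62 with an SE of 0.16 (adjusted p = 0.0343). Both genes encode small inner-membrane proteins. The 2 calls are 7.14% of the tested genes of the list, against 6.46% of all tested genes in this comparison, so the share is close to the background and is not a result about the list. A call here means an adjusted p under 0.05 in edgeR's quasi-likelihood test, adjusted over all 13596 genes.

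Mpc2 (ENSMUSG00000026568, chr1:165460637-165481214 in mm10, plus strand) was at 188, 170.4 and 185 CPM in the 3 vehicle males and at 114, 91.2 and 119 CPM in the 3 daily males. In weekly males it was at 138, 181 and 172 CPM. Every daily male lay below every vehicle male and every weekly male. In females, Mpc2 was at 149, 155 and 131 CPM with vehicle, at 122, 107 and 126 CPM with daily prednisone, and at 234, 111 and 146 CPM with weekly prednisone. The daily females lay below the vehicle females as well, as they did for 10.2% of all tested genes, but the difference of -0.29 (SE 0.21, adjusted p = 0.492) was not called. Over both sexes Mpc2 changed by -0.52 (SE 0.15, adjusted p = 0.0245), and it was the only gene of the list, 1 of 29, in which all 6 daily libraries lay below all 6 vehicle libraries, which held for 3.65% of all tested genes.

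Sdhd (ENSMUSG00000000171, chr9:50596338-50603849, minus strand) was at 220, 211 and 205 CPM in vehicle males, at 147, 119.7 and 148 CPM in daily males and at 175, 215 and 202 CPM in weekly males. Again the daily males stood below the vehicle and the weekly males without overlap. In females the levels were 174, 180.5 and 169.9 CPM with vehicle, 169.5, 146 and 175 CPM with daily prednisone and 248, 145 and 191 CPM with weekly prednisone, and the groups overlapped. The daily difference in females was -0.10 (SE 0.16, adjusted p = 0.799). Over both sexes Sdhd changed by -0.36 (SE 0.12, adjusted p = 0.0472).

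In bulk RNA, fewer cells of a type and less RNA per cell cannot be told apart, here and in the results that follow. Both calls in males rested on few animals. Leaving out any 1 of the 6 vehicle or daily males ended both calls, with an adjusted p of up to 0.164 for Mpc2 and 0.146 for Sdhd, while the log2 difference stayed between -0.79 and -0.64 for Mpc2 and between -0.66 and -0.52 for Sdhd. Mpc2 in males also lost its call without replicate 2 or 3 of the weekly males, replicate 1 of the vehicle females or replicate 3 of the daily females, so that of 18 fits that each left out 1 library it was called in 8 and Sdhd in 12. Over both sexes Mpc2 was called in 14 of the 18 and lost its call, with an adjusted p of up to 0.0631, without replicate 1 of the vehicle males, replicate 2 of the daily males, replicate 2 of the vehicle females or replicate 2 of the daily females. Sdhd over both sexes was called in 2 of the 18, those without replicate 1 or 2 of the weekly females, with an adjusted p of up to 0.113 in the rest.

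**Figure D1:**
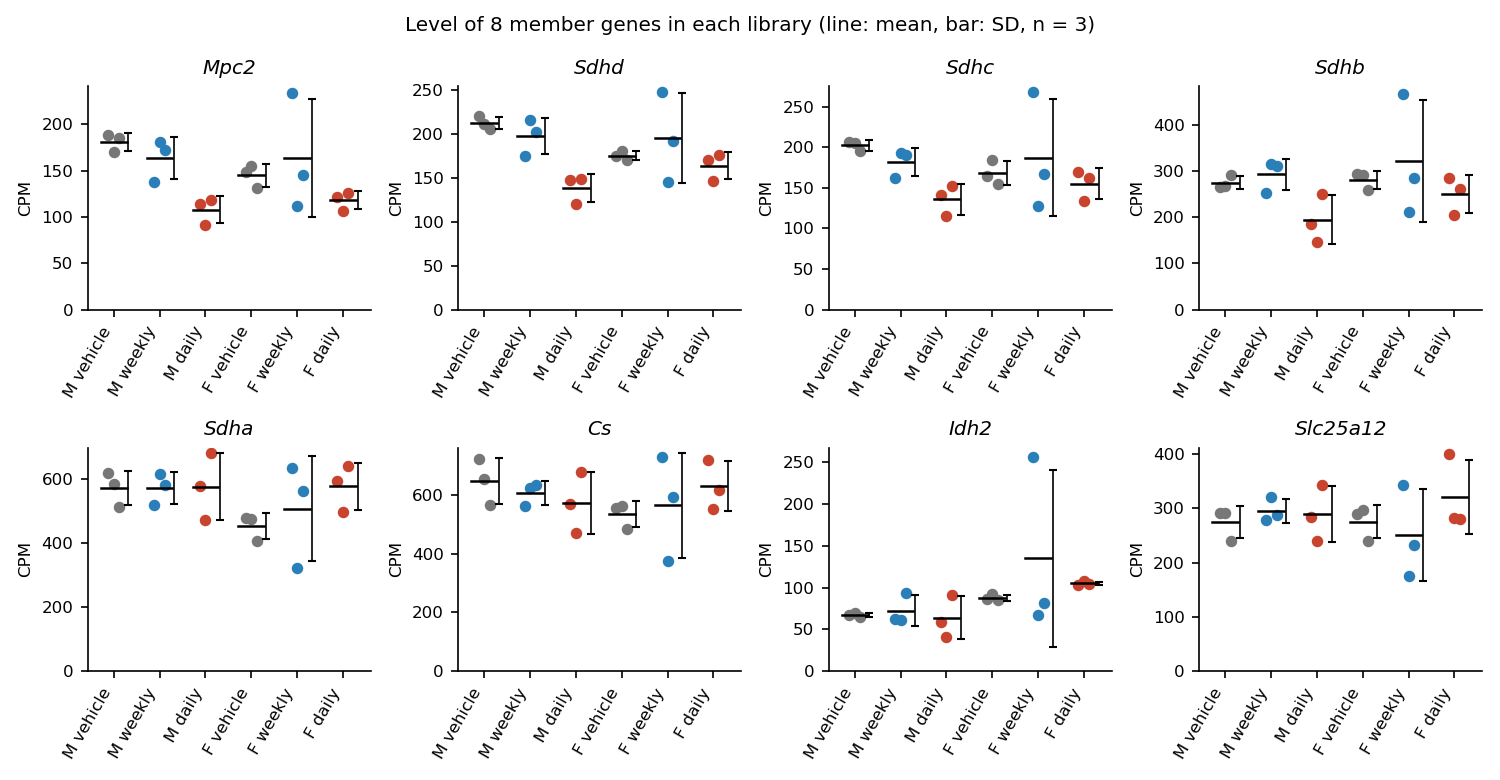
Levels of 8 genes of the list in each of the 18 libraries, in CPM, by sex and treatment (M male, F female); points are libraries, lines are means and bars are SD (n = 3). Mpc2, Sdhd and Sdhc were lower in all 3 daily males than in all 3 vehicle males, whereas Sdha, Cs and Slc25a12 overlapped, and weekly females had the widest spread.

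Over the whole list in males, 21 of 28 genes were lower and 7 higher with daily prednisone, with a median of -0.19 (range -0.75 to 0.12) beside a median of 0.05 over all tested genes. This median was -0.07 without replicate 2 of the daily males, -0.30 without replicate 3 of the daily males and -0.43 with the level of adipocyte markers as a covariate. For 9 of the 29 genes every daily male lay below every vehicle male, and this held for 17.1% of all tested genes. In females, 20 of 28 were higher and 8 lower, with a median of 0.12 (range -0.29 to 0.39) beside 0.01 over all genes, but the median was 0.015 without replicate 1 of the daily females and -0.21 with the adipocyte covariate. None of the 28 was called in females, and none had an unadjusted p under 0.05. DESeq2 and limma-voom called none either. Of all genes, edgeR called 0.382% in this comparison, with 2354 genes at an unadjusted p under 0.05. For 4 genes, Dlat, Dld, Sdha and Idh2, every daily female lay above every vehicle female, beside 12.9% of all tested genes. Over both sexes the median was -0.04 (13 higher, 15 lower), beside 0.02 over all genes, and the 2 called genes, 7.14%, stood against 15% of all genes.

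**Figure D2:**
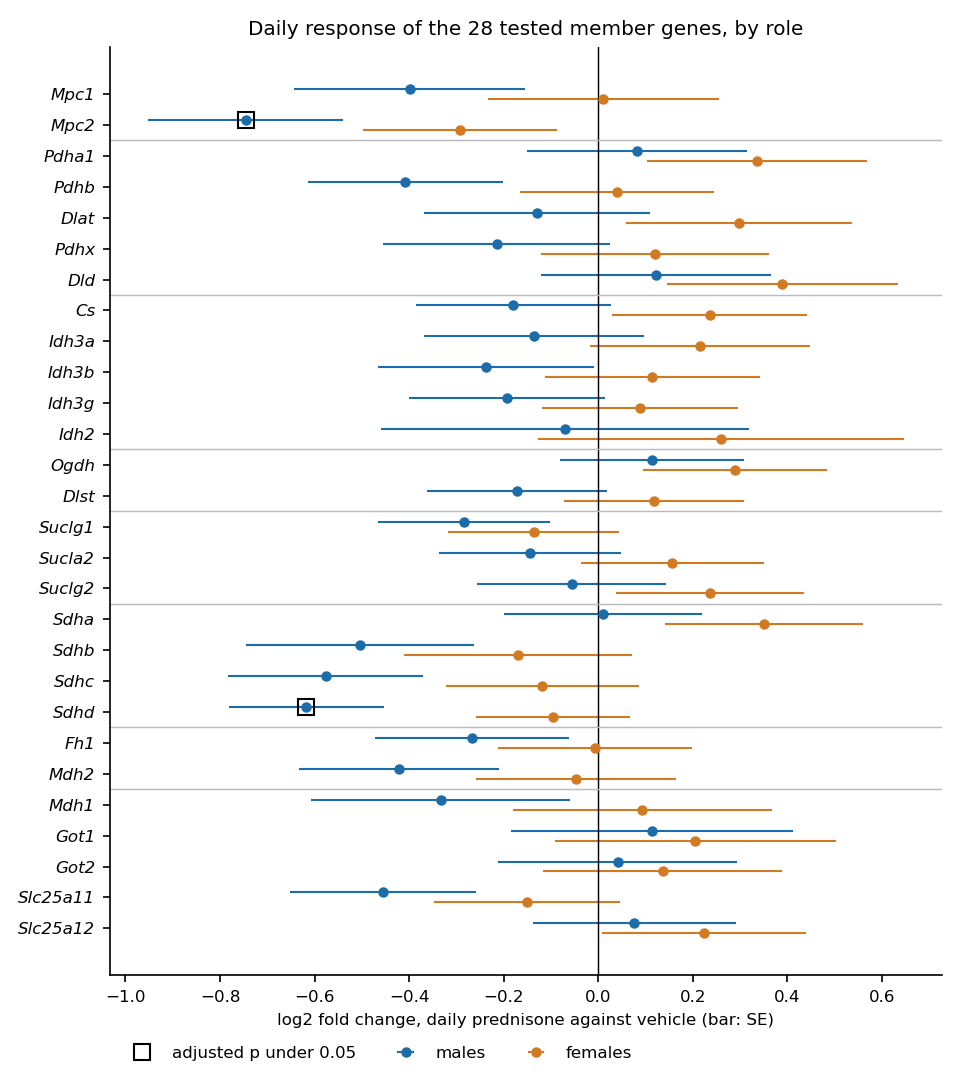
Log2 fold change of daily prednisone against vehicle for the 28 tested genes, grouped by role from pyruvate carrier (top) to malate-aspartate shuttle (bottom); points are estimates in males and females, bars are SE, and squares mark an adjusted p under 0.05. The estimate in females lies to the right of the one in males for every gene, and the squares mark Mpc2 and Sdhd in males alone.

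Mpc1, the partner of Mpc2 in the pyruvate carrier, did not pass the test. Its daily difference over both sexes was -0.19 (SE 0.17, adjusted p = 0.500), made up of -0.40 in males and 0.01 in females. Within a library the log2 ratio of Mpc2 to Mpc1 counts lay between -0.26 and -0.02 in vehicle males and between -0.70 and -0.39 in daily males. In females it lay between -0.11 and -0.04 with vehicle and between -0.48 and -0.23 with daily prednisone. In each sex, therefore, the daily libraries held fewer Mpc2 counts per Mpc1 count than any vehicle library of the same sex. A library's scaling cancels in this ratio, but a trend with exon length does not. The exons span 1025 bases in Mpc2 and 1470 in Mpc1, and the part of length was not tested. The exons of Mpc1 also overlap those of an antisense transcript and Mpc1 has a pseudogene, so reads of these could not be told apart from its own.

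In the pyruvate dehydrogenase complex, no subunit was called. Over both sexes the daily difference was 0.21 (SE 0.16) for Pdha1 and -0.18 (SE 0.15) for Pdhb, the alpha and beta chains of the E1 decarboxylase. It was 0.08 (SE 0.17) for Dlat, the acetyltransferase core, -0.05 (SE 0.17) for Pdhx, which binds the E3 enzyme to the core, and 0.26 (SE 0.17) for Dld, the E3 enzyme that this complex shares with oxoglutarate dehydrogenase. Here too the members of the complex differed in direction, and the log2 ratio of Pdhb to Pdha1 fell outside the vehicle range in daily libraries. In males it went from between -1.06 and -0.89 to between -1.52 and -1.33. In females it went from between -1.11 and -0.79 to between -1.33 and -1.24. The exons of Pdhb are shorter, at 1513 bases against 2848 for Pdha1, and the part of length in this ratio was not tested.

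The first steps of the cycle were nearly level over both sexes, with opposite signs in males and females. Cs, citrate synthase, differed by 0.03 (SE 0.15). Among the subunits of the NAD-dependent isocitrate dehydrogenase, the difference was 0.04 (SE 0.16) for the catalytic Idh3a, -0.06 (SE 0.16) for Idh3b and -0.05 (SE 0.15) for Idh3g, and Idh2, the NADP-dependent enzyme of mitochondria, differed by 0.09 (SE 0.27). All 5 were lower in daily males, by -0.24 to -0.07, and higher in daily females, by 0.09 to 0.26, and none passed the test in either sex.

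The oxoglutarate dehydrogenase complex and succinyl-CoA synthetase held no called gene. Ogdh, which decarboxylates 2-oxoglutarate, differed by 0.20 (SE 0.14) over both sexes and Dlst, the succinyltransferase core, by -0.03 (SE 0.13). In succinyl-CoA synthetase, the alpha subunit Suclg1 differed by -0.21 (SE 0.13), the ATP-forming beta subunit Sucla2 by 0.01 (SE 0.14) and the GTP-forming beta subunit Suclg2 by 0.09 (SE 0.14). Of the beta subunits, Sucla2 had the more abundant transcripts, at 161 CPM per kb of exon in vehicle males against 12.3 for Suclg2. Before division by length the means were 359.5 and 46.1 CPM. The log2 ratio of the pair overlapped between vehicle and daily libraries of each sex.

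In succinate dehydrogenase, also known as complex II, the subunits differed in their daily response. Sdha, the flavoprotein that oxidizes succinate, differed by 0.01 in daily males (SE 0.21) and by 0.35 in daily females (SE 0.21). Sdhb, which carries the iron-sulfur clusters, differed by -0.50 in males (SE 0.24, adjusted p = 0.225) and -0.17 in females (SE 0.24). The membrane anchor Sdhc differed by -0.58 in males (SE 0.21, adjusted p = 0.103) and -0.12 in females (SE 0.21), beside the called fall of the other anchor, Sdhd. Over both sexes the differences were 0.18 (SE 0.15) for Sdha, -0.34 (SE 0.17, adjusted p = 0.202) for Sdhb and -0.35 (SE 0.15, adjusted p = 0.120) for Sdhc.

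Because the 4 subunits form the complex in equal number, their ratio within each library was also taken; these ratios were chosen after the values had been seen and are given without a test. The log2 ratio of Sdhd to Sdha counts lay between -1.49 and -1.32 in vehicle males, between -1.57 and -1.52 in weekly males and between -2.20 and -1.98 in daily males. In females it lay between -1.45 and -1.26 with vehicle, between -1.56 and -1.15 with weekly prednisone and between -1.87 and -1.77 with daily prednisone. Daily libraries thus stood apart from the vehicle and weekly libraries in both sexes. The ratio of Sdhc to Sdha behaved alike, with means of -1.50, -1.65 and -2.08 in vehicle, weekly and daily males and -1.43, -1.45 and -1.90 in females. For Sdhb to Sdha the means were -1.05, -0.97 and -1.59 in males and -0.68, -0.67 and -1.21 in females. No daily library overlapped a vehicle library of its sex in any of these ratios. The exons span 1231 bases in Sdhd and 1142 in Sdhb, against 2900 in Sdha and 3171 in Sdhc. The part of exon length in these ratios was not tested, and the share of all gene pairs that separate in this way was not counted.

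**Figure D3:**
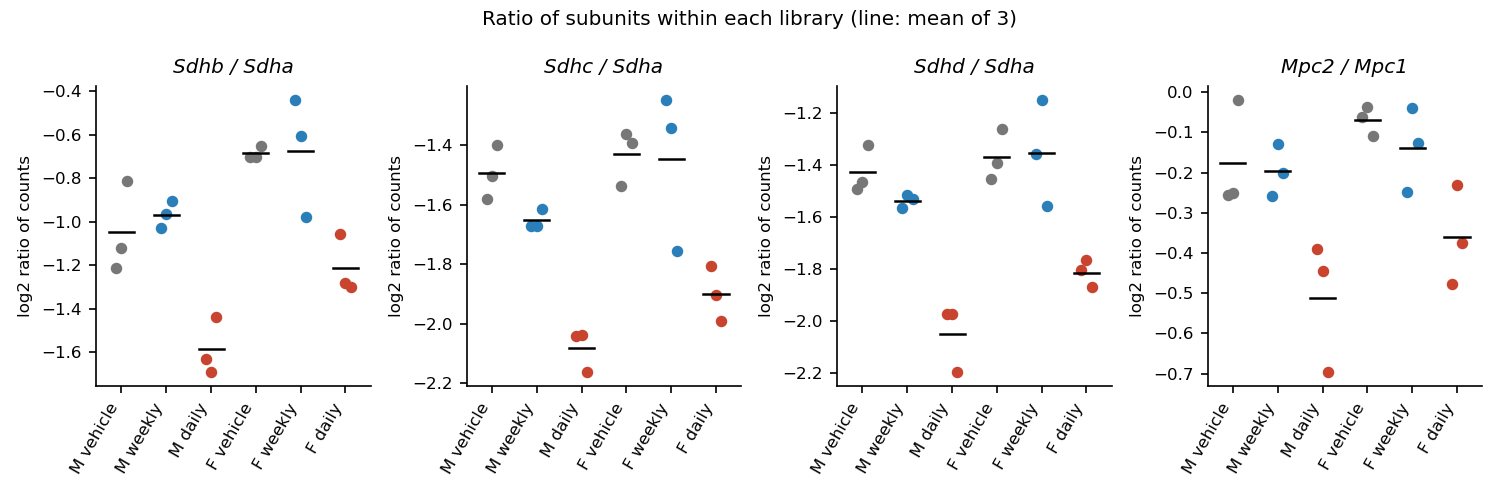
Log2 ratio of the counts of 2 subunits within each library, by sex and treatment (M male, F female); points are libraries and lines are means of 3. In each panel the daily libraries lie below all vehicle libraries of their sex, for example between -2.20 and -1.98 against -1.49 to -1.32 for Sdhd to Sdha in males.

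The stretches upstream of the transcription starts were searched for motifs of factors known to act on nuclear genes for mitochondria. RefSeq windows (GRCm38.p6, 250 bases before to 50 after each start) were found for 27 of the 29 genes, and Idh3a and Sdhc had none. The 27 genes had 33 windows. The NRF1 motif (GCGC and TGCGC with 1 base of any kind between them) was searched on both strands like the others. It was held by 4 of the 33 windows, those of Sdha, Sdhd, Dld and Sucla2, and by 4.6% of all 32851 windows. Of the 4, Sdhd was called in daily males and Sdha differed by 0.01 there. The 6 matches are shown with their surroundings, 5′ to 3′ on the strand of the gene, with the motif in capitals. The match in Sucla2 reads as the motif is written above, and those in Sdhd, Sdha and Dld are on the strand opposite to the gene.

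Sdhd, chr9:50603909-50603938: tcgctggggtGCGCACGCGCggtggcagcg
Sdha, chr13:74350319-74350348: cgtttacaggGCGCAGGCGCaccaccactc
Sdha, chr13:74350276-74350305: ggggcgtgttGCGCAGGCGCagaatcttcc
Sdha, chr13:74350231-74350260: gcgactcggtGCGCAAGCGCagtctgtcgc
Dld, chr12:31351422-31351451: cggcgatgacgtatatgttGCGCAGGCGCa
Sucla2, chr14:73552759-73552788: ctgcgtctctGCGCCTGCGCggtgcccagg

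Sdhd was the only gene of the list with 3 kinds of match. Beside the NRF1 motif it held an ETS motif, CCGGAAG, which 6 of the 33 windows of the list and 8.86% of all windows held. It also held the only match in the list to the ERR motif TNAAGGTCA, present in 1.28% of all windows. Both are shown because Sdhd is one of the called genes, and in both the match is on the strand opposite to the gene.

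Sdhd, ETS motif, chr9:50603877-50603906: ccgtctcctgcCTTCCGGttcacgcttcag
Sdhd, ERR motif, chr9:50603800-50603829: tttccgggttgtagagTGACCTTGAgccct

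Mpc2, the other called gene, held none of these motifs in its window. The YY1 motif AAGATGGC was found in Idh3g alone and in 2.75% of all windows. The full glucocorticoid response element (AGAACA and TGTTCT with 3 bases of any kind between them) was found in none of the genes of the list and in 0.00913% of all windows. A match describes the letters in these windows and does not show binding.

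Per length of exon, the 4 subunits were not equally abundant to begin with. In vehicle males Sdhb was at 241.5 ± 12.7 CPM per kb (SD, n = 3), Sdha at 197 ± 18.2, Sdhd at 172 ± 5.76 and Sdhc at 63.8 ± 2.06. Sdhb and Sdha differed by more than their spread, as did Sdha and Sdhd by a little, whereas Sdhc was far below the rest. Of the whole list, Mdh2 was highest at 456 ± 32.1 CPM per kb, followed by Sdhb and by Cs at 221 ± 26.9, and the neighbors Sdhb and Cs overlapped in their spread. From Mpc2 at 177 ± 9.32 through Idh3b at 170.2 ± 11.7 down to Ogdh at 133 ± 14.4, each gene overlapped the next in its spread. Neighbors in this stretch could not be ordered. The lowest tested genes were Dlat at 30.1 ± 3.33, Pdhx at 15.9 ± 2.04 and Suclg2 at 12.3 ± 1.34.

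Fh1, fumarase, and Mdh2, the malate dehydrogenase of mitochondria that closes the cycle, differed by -0.14 (SE 0.15) and -0.23 (SE 0.15) over both sexes in daily libraries. In males both lay below every vehicle library, with differences of -0.27 (SE 0.21) and -0.42 (SE 0.21), but neither passed the test.

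In the malate-aspartate shuttle no gene was called. Slc25a11, which exchanges malate for 2-oxoglutarate, was at 190, 177 and 182 CPM in vehicle males and at 139.7, 109 and 151 CPM in daily males. Its daily difference was -0.45 in males (SE 0.20, unadjusted p = 0.0342, adjusted p = 0.179), -0.15 in females (SE 0.20) and -0.30 over both sexes (SE 0.14, adjusted p = 0.158). The cytosolic Mdh1 differed by -0.12 (SE 0.19) over both sexes, and the aspartate aminotransferases Got1 of the cytosol and Got2 of mitochondria by 0.16 (SE 0.21) and 0.09 (SE 0.18). Slc25a12, the aspartate-glutamate carrier also called aralar, differed by 0.15 (SE 0.15). Its paralog Slc25a13, or citrin, had 67 counts over all 18 libraries together, with at most 7 in any, against 1835 to 5216 counts of Slc25a12 per library, so that Slc25a12 supplied nearly all transcripts of this carrier.

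No gene of the list passed the test for weekly prednisone in either sex. In males, edgeR called 0% of all genes and none of the list, where 777 genes had an unadjusted p under 0.05 but none of these was on the list. DESeq2 called 1 gene in all and limma-voom none. The median of the list was -0.02 (13 higher, 15 lower), beside 0.01 over all genes. The largest differences were in Got2 and Got1. Got2 was at 259, 245 and 225.5 CPM in vehicle males and at 257, 306 and 312 CPM in weekly males, a difference of 0.26 (SE 0.25, adjusted p = 0.873). Got1 was at 178, 175 and 182 CPM with vehicle and at 177.5, 206 and 221.5 CPM with weekly prednisone, a difference of 0.18 (SE 0.30). The groups overlapped for both genes.

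In weekly females, 24 of 28 genes were higher, with a median of 0.16 (range -0.14 to 0.62) beside 0.01 over all genes, and none was called. Again 0% of all genes were called by edgeR, with 1083 genes but none of the list at an unadjusted p under 0.05. DESeq2 called 152 genes in all and none of the list, and limma-voom none. Idh2 differed the most, by 0.62 (SE 0.39, adjusted p = 0.780), and was at 86.6, 91.7 and 84.5 CPM in vehicle females and at 256, 67.1 and 81.1 CPM in weekly females. Mdh1 followed with 0.34 (SE 0.27), at 321.5, 328 and 266 CPM with vehicle and at 615.5, 213.5 and 332 CPM with weekly prednisone. In both genes replicate 1 was far above the vehicle range and replicate 2 below it. Replicate 1 is the library with the high slow-fiber transcripts. Without it, the weekly difference in females was -0.24 for Idh2, -0.17 for Mdh1 and -0.18 for the median of the list. Without replicate 2 the median was 0.37, with 9 genes of the list at an unadjusted p under 0.05 and none called, and with the level of adipocyte markers as a covariate it was -0.22. The sign of the weekly response of the list in females thus changed with 1 library.

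Over both sexes, weekly against vehicle called 0% of all genes and none of the list, with 1492 genes at an unadjusted p under 0.05 and none on the list, while DESeq2 called 183 genes, none of them on the list, and limma-voom none. The median was 0.07. Mpc2 differed by 0.02 (SE 0.15) and Sdhd by 0.03 (SE 0.12), and the 95% interval of the difference ran from -0.27 to 0.30 for Mpc2 and from -0.20 to 0.25 for Sdhd.

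Compared directly with the weekly libraries, daily libraries of both sexes had lower Mpc2, by -0.53 (SE 0.15, adjusted p = 0.0343), the only called gene of the list, 3.57% beside 8.17% of all genes. Sdhd differed by -0.38 (SE 0.12, adjusted p = 0.0510) and Sdhb by -0.48 (SE 0.17, adjusted p = 0.0931). In males alone edgeR called 0% of genes, with 1829 genes and 4 of the list, Mpc2, Sdhd, Sdhb and Slc25a11, at an unadjusted p under 0.05. For 9 of 29 genes all daily males lay below all weekly males, beside 12.7% of all tested genes. In females edgeR also called 0%, with 2401 genes and 1 of the list, Mpc2, at an unadjusted p under 0.05, and in neither sex did DESeq2 or limma-voom call a gene of the list. These comparisons share the daily libraries with those against vehicle. The call for Mpc2 was lost in 8 of 18 fits that left out 1 library, with an adjusted p of up to 0.0814: those without any 1 of the 3 daily males, replicate 2 or 3 of the weekly males, replicate 1 of the weekly females, or replicate 2 or 3 of the daily females.

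The sex difference of the daily response, the response in females minus that in males, was positive for all 28 genes, with a median of 0.33 (range 0.09 to 0.52) beside 0.03 over all genes. No gene of the list passed the test of this difference, nor did any of the 13596 genes (0%), while 638 genes had an unadjusted p under 0.05, of which 1, Sdhd, was on the list (0.52, SE 0.23, unadjusted p = 0.0379, adjusted p = 0.889). DESeq2 called 2 genes in all and none of the list, and limma-voom none. The vehicle libraries enter this difference. In vehicle females 21 of 28 genes were lower than in vehicle males, with a median of -0.25, and for 14 of 29 genes every vehicle female lay below every vehicle male, beside 9.22% of all tested genes. None was called, with 0.765% of all genes called, and neither DESeq2 nor limma-voom called any of the list. In edgeR 1 gene of the list, Pdhx (-0.51, SE 0.24), had an unadjusted p under 0.05. Such genes numbered 13 with only the vehicle groups fitted and 7 with the adipocyte covariate. They numbered 0 with limma-voom or a minimum count of 50. For the weekly response the sex difference had a median of 0.15, with 0% of genes called, 357 genes and none of the list at an unadjusted p under 0.05, and none called by DESeq2 or limma-voom; without replicate 1 of the weekly females the median was -0.17.

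The genes of the list differ in length, and their daily responses followed it. Across the 28 genes, which share the same libraries, the daily difference over both sexes correlated with the summed exon length on a log scale with a Pearson r of 0.67 and a Spearman rho of 0.63. Of 11 genes under 2000 bases, 10 were lower with a median of -0.21, while of 17 longer genes 5 were lower with a median of 0.08. Mpc2, at 1025 bases the shortest of the list, and Sdhd, at 1231 bases, were among the lowest, whereas Sdhc, lower by a similar amount, spans 3171 bases. The same was seen over all 13529 tested genes with a known length, where the rho was 0.45 and the medians were -0.25 under 2000 bases and 0.08 above. For the weekly difference the r across the list was -0.21. A smooth trend on length and GC content was also taken out of each library. Both were those of the longest annotated transcript of a gene, not of its summed exons. A trend on summed exon length itself was not removed. With the trend taken out, Sdhd over both sexes went from -0.36 to -0.17 (adjusted p = 0.409). Mpc2 kept its call over both sexes, at -0.67, and in males was at -0.93 with an adjusted p of 0.0608. Of all genes, 62 were then called in males, against 878 before, and 684 over both sexes, against 2033.

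**Figure D4:**
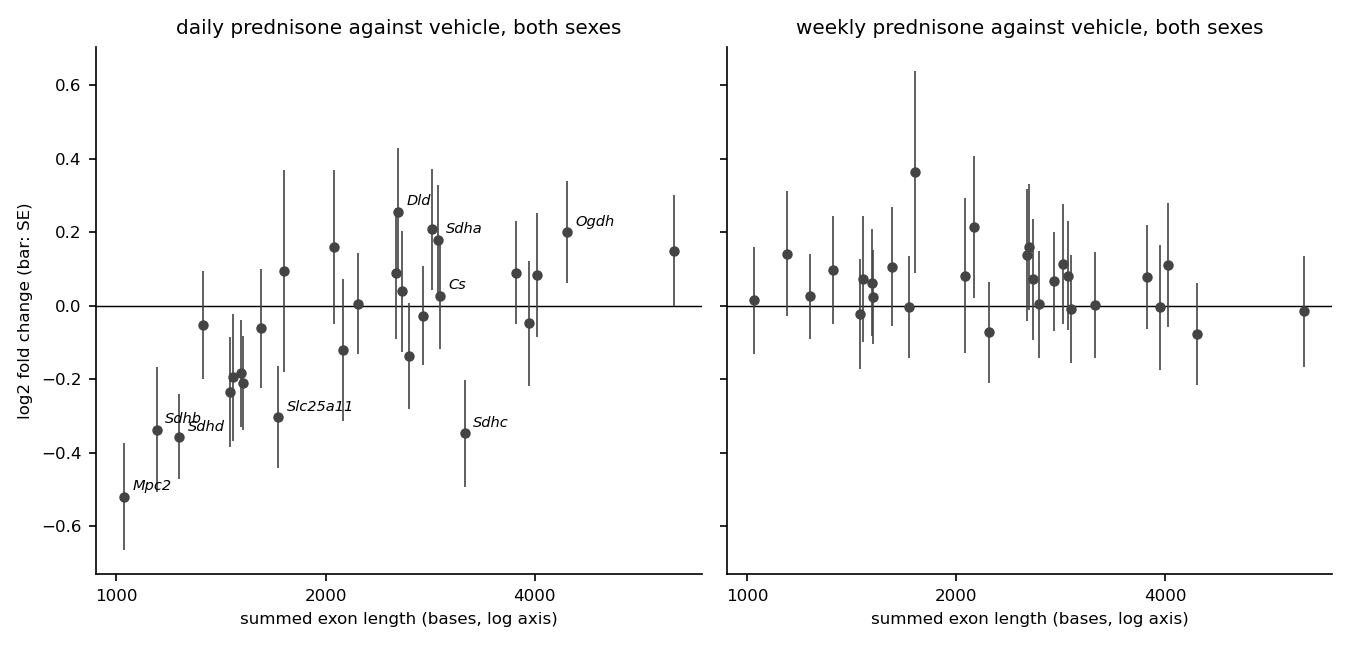
Log2 fold change over both sexes against summed exon length (log axis, bases) for the 28 tested genes, for daily prednisone (left) and weekly prednisone (right) against vehicle; points are genes and bars are SE. On the left, the short genes Mpc2 and Sdhd and the longer Sdhc lie lowest, closely followed by the short Sdhb, and the correlation is 0.67, while on the right it is -0.21.

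Markers of fat cells moved with treatment. Over both sexes, all 10 adipocyte markers had a higher mean with daily prednisone than with vehicle, and 7 were called, with a median of 2.49 on the log2 scale. Their summed level was 741 to 1460 CPM in vehicle males, 1214 to 2154 in weekly males, 1498 to 2858 in daily males, 1678 to 1771 in vehicle females, 1949 to 9417 in weekly females and 2739 to 7142 in daily females. No marker was at 0 except 1 in 1 vehicle female. A sum is set mostly by the most abundant markers. The mean log2 level of the 10 markers was 3.60 to 4.54 in vehicle males, 5.23 to 6.12 in weekly males and 5.29 to 6.50 in daily males. In females it was 4.57 to 4.75 with vehicle, 5.16 to 8.29 with weekly and 6.17 to 8.03 with daily prednisone. With the mean log2 level of these markers as a covariate, no gene of the list was called for daily against vehicle in males or over both sexes, and of all genes 39 were called in males, against 878 without the covariate, and 0 over both sexes, against 2033, although the differences over both sexes were then larger in size, at -0.82 for Mpc2 and -0.62 for Sdhd. The part of fat cells in these results was not tested further.

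Complex I takes up the electrons that the cycle stores in NADH. Of 36 nuclear genes for its subunits, 25 were called lower in daily males, with a median of -0.77, where 6.46% of all genes were called. Over both sexes 30 were called lower, with a median of -0.63, where 15% were called. Ndufa2 fell by 1.09 on the log2 scale (SE 0.12), Ndufb7 by 0.85 (SE 0.12) and Ndufc1 by 0.90 (SE 0.14). In females 1 of 36, Ndufa2, was called lower, although the median was -0.49, where 0.382% of all genes were called. The number of all genes called in daily females moved widely with the setting. It was 52 in the main fit, 526 with DESeq2, 198 with a minimum count of 50 and 2 without mitochondrially encoded genes. Without 1 library it ranged from 0 to 299. No tested gene was called for the sex difference of the daily response. The summed exons of these genes had a median of 1014.5 bases against 2530 for the genes of the pyruvate and TCA list, and the part of length in the difference between the medians was not tested.

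Assembly factors build the enzymes of the cycle, and lipoylation attaches the cofactor of its dehydrogenase complexes. Of 12 assembly and lipoylation factors, all were lower in daily males, with a median of -0.44, and 2 were called. These were Sdhaf1, an assembly factor of succinate dehydrogenase (-1.13, SE 0.21, adjusted p = 0.00997), and Glrx5, a glutaredoxin of iron-sulfur cluster synthesis (-1.01, SE 0.18, adjusted p = 0.00772). Over both sexes Sdhaf1 fell by 0.76 (SE 0.15), Glrx5 by 0.74 (SE 0.12) and Sdhaf4, another assembly factor of the complex, by 0.46 (SE 0.14). These are 2 of 12 in males, beside 6.46% of all genes, and 3 of 12 over both sexes, beside 15%. With the level of adipocyte markers as a covariate, 0 of all genes were called over both sexes, so these 3 calls were lost. Of the 12, none was called in females, where the median was 0.00.

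Among 7 pyruvate dehydrogenase kinases and phosphatases, Pdpr, the regulatory subunit of the phosphatase, rose over both sexes by 1.19 (SE 0.20, adjusted p = 0.00185) and no other was called. Pdk4, a kinase that shuts off the complex and is a known target of glucocorticoids, differed by 0.19 (SE 0.37, adjusted p = 0.785). Of 19 neighboring enzymes, Pck1, the cytosolic phosphoenolpyruvate carboxykinase, rose by 4.01 (SE 0.88, adjusted p = 0.00838), and Fahd1, an oxaloacetate decarboxylase, fell by 0.53 (SE 0.15). Of 7 tested mitochondrial carriers, 3 were called higher over both sexes: the citrate carrier Slc25a1 (2.06, SE 0.60), the dicarboxylate carrier Slc25a10 (1.40, SE 0.41) and the glutamate carrier Slc25a22 (0.75, SE 0.24). Beside the 15% of all genes called over both sexes, the called shares were 1 of 7, 2 of 19 and 3 of 7, and the first and second of these are not above it. Pck1, Slc25a1 and Slc25a10 are abundant in fat cells, whose markers rose in the same libraries. The part of fat cells in the rises of these genes was not tested.

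**Figure D5:**
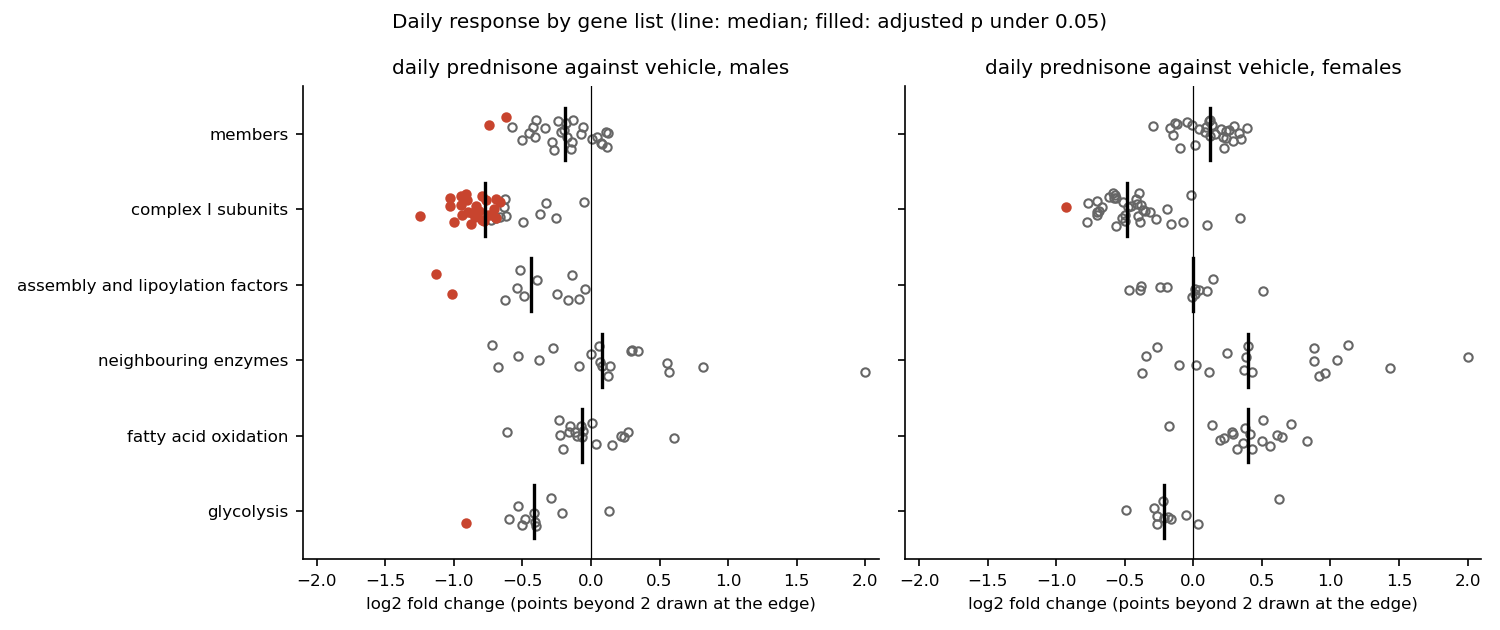
Log2 fold change of daily prednisone against vehicle by gene list, in males (left) and females (right); points are genes, filled where the adjusted p is under 0.05, lines are medians, and values beyond 2 are drawn at the edge. In males the complex I subunits have a median of -0.77 against -0.19 for the genes of pyruvate oxidation, the cycle and the shuttle (row members) and in females -0.49 against 0.12.

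In neighboring fuel pathways, the genes called over both sexes were Cpt1b in fatty acid oxidation and Pgam2 and Hk2 in glycolysis. Of all genes, 15% were called in that comparison. The 18 genes of fatty acid oxidation had a median of -0.07 in daily males and 0.40 in daily females. Cpt1b, the muscle carnitine palmitoyltransferase, rose over both sexes by 0.72 (SE 0.22). The 11 genes of glycolysis had a median of -0.41 in males and -0.22 in females, and over both sexes Pgam2, the muscle phosphoglycerate mutase, fell by 0.70 (SE 0.15) and Hk2, hexokinase, rose by 0.38 (SE 0.12).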

How the data were processed

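Myofiber RNA of 18 mice was compared by sex and treatment, with groups and replicate numbers taken from the sample titles. The deposited values are raw counts: the authors mapped the reads to mm10 and summed them over each gene, with no scaling. Per the processing notes of the submitters, TopHat2 2.1.0, Bowtie2 2.2.6 and HTSeq were used, and both mm10 and mm9 are listed. The strand setting and annotation release are not given in the sources used here, so 6 genes of the list whose exons overlap another gene on the opposite strand (Mpc1, Pdha1, Idh3b, Mdh1, Got2 and Slc25a11) and those with pseudogenes (Mpc1 and Got2) are uncertain. Exon lengths were computed from GENCODE M21, in which 22 of the 29 genes have the same start and end, since the deposited lengths exceeded the gene span for many genes.

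Counts were analyzed in R 4.3.3 with edgeR 4.0.16: filterByExpr (minimum count 10), TMM scaling, a robust quasi-likelihood fit of 6 group means over all 18 libraries, and Benjamini-Hochberg adjustment over 13596 genes, called at an adjusted p under 0.05. The SE of a log2 fold change was derived from the F statistic. Comparisons over both sexes are the mean of those in males and females. Intervals are 95% intervals of 1.96 SE. Levels are CPM on the TMM-scaled library size, and list scores are mean log2 CPM with a prior count of 2. The steps were tested on simulated data. Alternatives tried were limma-voom (limma 3.58.1), DESeq2 1.42.0 or its size factors alone, no filter, and a minimum count of 50. Others were a block for replicate number, a fit to only the groups in a comparison, and covariates for adipocyte or slow-fiber scores. Mitochondrially encoded genes were also omitted, and each library was left out in turn. A length and GC trend was removed with splines (5 degrees of freedom) on the longest transcript of each gene in GENCODE M21.

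Replicate numbers pair samples only where their deviations correlate. The numbers come from the sample titles, and the animal numbers in the sample descriptions differ from them for most libraries, so a shared number need not mark a shared cage, day or batch. A correlation above 0.1 in every pair held for weekly and daily females, with r of 0.501, 0.483 and 0.439, and for no other pair of groups. A block for these libraries, added after the data had been seen, left the count of called genes of the list for daily against weekly in females at 0. No libraries agreed within sampling noise (chi-square per degree of freedom of 13.2 or more). The genes and lists were chosen with earlier results of these data known. Every gene of the list is named with its daily response, levels by library are given for called genes and the 2 largest weekly differences per sex, and at most 3 called genes per other list are named. The levels of Slc25a11 by library, the ratios between subunits and the responses of Sdha, Sdhb and Sdhc by sex were added after their values had been seen.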

Additional observations from a re-analysis of the deposited data

How the results depend on the processing

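With 3 animals a group, the standard error of a daily log2 difference in males had a median of 0.229, which limits what could be called. Of 48 results for single genes, limma-voom left all 48 and the replicate block 47 on the same side of the threshold and in the same direction. The replicate block kept 2 called genes of the list and a median of -0.19 in daily males and changed no other count or median beyond its spread; the same held for the 24 counts and medians under limma-voom and DESeq2 size factors. Called genes of the list in daily males numbered 2, and 1 without a filter, 0 with the adipocyte score, 0 with the length and GC trend removed, 3 with the compared groups alone, where Sdhc was added, and 0 to 3 when 1 library was left out. Of all genes, 878 were called in daily males, and 600 without a filter, 39 with the adipocyte score, 62 with the length and GC trend removed and 1530 with the compared groups alone. Over both sexes the 2 became 1 without a filter, 0 with the adipocyte score, 1 without mitochondrially encoded genes, 1 with the length and GC trend removed, 3 with the compared groups alone, again with Sdhc, and 0 to 3 without 1 library. For daily against weekly over both sexes the 1 became 2 with the stricter filter, 2 with the adipocyte score, 2 with DESeq2, 0 with the slow-fiber score, 0 with the length and GC trend removed, 0 with the compared groups alone and 0 to 4 without 1 library. With the adipocyte score the median of the list was -0.21 for daily females, -0.33 for daily over both sexes, -0.22 for weekly females and -0.23 for weekly over both sexes. It was -0.43 for daily males. Without 1 library the median ranged from -0.30 to -0.07 for daily males, from 0.015 to 0.22 for daily females, from -0.18 to 0.37 for weekly females, from -0.23 to 0.29 for daily against weekly females and from -0.17 to 0.35 for the weekly response of females minus that of males.

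Directions turned for differences near 0 and for larger ones, and the cause was not tested. Among the larger ones were Dld, Pdha1 and Sdha over both sexes with the adipocyte score. Idh2 and Mdh1 in weekly females turned with the slow-fiber score and without replicate 1. For daily against vehicle over both sexes, the adipocyte score gave -0.15 for Pdha1, -0.36 for Dlat, -0.24 for Dld, -0.20 for Cs, -0.24 for Idh3a, -0.19 for Idh2, -0.30 for Sucla2, -0.27 for Suclg2, -0.20 for Sdha and -0.096 for Got1. It gave -0.30 for Sdha in daily males, -0.089 for Sdha and -0.19 for Dld in daily females, -0.032 for Got1 in weekly males and -0.18 for Mdh1 in weekly females. Removing the length and GC trend gave 0.012 for Mpc1, -0.010 for Dlat, -0.0021 for Cs, 0.033 for Idh3g, -0.038 for Sucla2, -0.015 for Suclg2 and -0.056 for Slc25a12 over both sexes, -0.022 for Sdha in daily males, and 0.073 for Sdhd and 0.032 for Sdhb in daily females. The slow-fiber score gave -0.031 for Cs, -0.037 for Idh3a, -0.19 for Idh2, -0.047 for Sucla2 and -0.029 for Got2 over both sexes, -0.048 for Sdha in daily males, -0.15 for Got1 in weekly males, and -0.26 for Idh2 and -0.097 for Mdh1 in weekly females. Without a filter Dlst over both sexes was 0.0045. Sucla2 over both sexes was -0.0047 with DESeq2 size factors and -0.0048 with DESeq2, and Sdha in daily males was -0.0028 with both and -0.0022 with the replicate block. Without 1 library, the difference over both sexes ranged from -0.028 to 0.089 for Cs, -0.067 to 0.047 for Dlst, -0.019 to 0.18 for Got2, -0.063 to 0.21 for Idh2, -0.032 to 0.11 for Idh3a, -0.13 to 0.0063 for Idh3b, -0.11 to 0.0030 for Idh3g, -0.12 to 0.021 for Pdhx and -0.046 to 0.066 for Sucla2. It ranged from -0.093 to 0.14 for Sdha in daily males, and in weekly females from -0.24 to 0.93 for Idh2 and from -0.17 to 0.62 for Mdh1.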
